A study of Homo sapiens with 12 samples.

Results

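The comparison described here set C28/I2 chondrocytes given SDF-1α with astragaloside IV over C28/I2 chondrocytes given SDF-1α alone. Its members were all genes with a value for that pair of groups in the authors' deposited table, 18133 of 19215 gene symbols, and it drew on 6 of the 12 samples of the study. The SDF1_AS4 group was 3 samples with 50 nM SDF-1α and 10 µM astragaloside IV, and the SDF1 group was 3 samples with 50 nM SDF-1α, all collected for RNA sequencing after 48 h. Of the remaining groups, SDF1_SKHS was 3 samples with 50 nM SDF-1α and 1% of the herbal product SKHS, and DMSO was 3 samples with 0.5% DMSO. Profiling was done to ask whether natural products that antagonise the receptor CXCR4 block the signalling that SDF-1 sets off inside these cells. All groups were the same immortalised human chondrocyte line, grown in medium with serum. No source used here says whether the 3 samples of a group came from separate cultures, so the p-values measure the spread between these samples, which may be technical. The labels name no vehicle for astragaloside IV, and a solvent added with it cannot be told apart from the compound.

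SDF-1α, also called CXCL12, is a chemokine that binds the G protein-coupled receptor CXCR4 and the atypical receptor ACKR3. CXCR4 acts through inhibitory G proteins, PI3 kinase and the MAP kinase cascade to ERK, and ERK in turn drives immediate early genes such as EGR1 and FOS. In cartilage the chemokine is known from osteoarthritic joints, where it is made by the synovium and is linked to release of matrix-degrading proteases by chondrocytes. Astragaloside IV is a cycloartane-type triterpenoid saponin from the root of Astragalus.

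Few genes differed with astragaloside IV, and those measured precisely differed by less than 2-fold. The authors' deposited table has 36 genes that rose and 29 that fell at a DESeq2 adjusted p under 0.05 (Benjamini-Hochberg), 65 of 18133 or 0.358% in all, 0.199% higher and 0.160% lower. The fall of the immediate early transcription factor gene EGR1 was the largest among precisely measured genes. The other falls took in extracellular matrix and adhesion genes (THBS1, TNC), growth factor and cytokine receptors and ligands (MET, NRG1, INHBA, IL7R), Wnt regulators (LGR4, APC) and cell cycle genes (CCNE2, SMC1A, ANLN). The rises took in the protein kinase genes PRKACA and MAP2K2, the cytokine gene TGFB1, the lipid synthesis regulator SREBF1, metallothionein MT2A and a pair of uroplakin-like genes. These groupings by role were made after the values were seen and carry no test. A trend of the fold changes with transcript length and GC content is described below. With that trend removed, only EGR1, NRG1 and PRKACA of the genes named in these groupings kept an adjusted p under 0.05. With the deposited statistics read against a t distribution with 4 degrees of freedom, 0 genes passed after adjustment, beside 2970 (16.4%) at a deposited unadjusted p under 0.05. That reading raises every p, and even EGR1 (-0.92 ± 0.13) had an adjusted p of 0.736 there, so it cannot tell the called genes apart.

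Values below are log2 fold changes of SDF1_AS4 over SDF1 from the authors' deposited table, ± a standard error implied by the deposited p-value. Sample-level values were not used here, so no level, spread or overlap within a group is given. A gene is called precise where that error is at most 0.3, as for 11946 genes. Called log2 changes had a median size of 0.45, and the smallest was 0.32. Of the 65 called genes, 61 were precise, 32 of them higher and 29 lower. The spread of all precise genes was narrow, with a median of -0.01 and values from -0.35 at the 5% point to 0.32 at the 95% point. Fold changes also went with transcript length and GC content, and values with that trend removed stand beside called genes that it moved by over 1.5 times. These were 19 of 31 precise rises and 9 of 29 falls with an annotated transcript. A further 290 genes were higher and 283 lower at an adjusted p between 0.05 and 0.10. The 95% interval lay within a 1.5-fold change either way for 9876 genes (54.5%) and within a 2-fold change for 12491 (68.9%). Over all genes the median was 0.01 and 0.358% were called, and the counts of list members below stand against these values.

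The chondrocyte label could be checked only by whether markers had a value, since the table holds no levels. All 10 chondrocyte markers looked up had one, but only 3 were precise: the transcription factor gene SOX9, the aggrecan core protein gene ACAN and the fibrillar collagen gene COL11A1. COL2A1, the defining collagen of cartilage, had an implied error of 1.78, and none of the 10 was called. Markers of fibroblasts (3 of 5 precise), smooth muscle (3 of 4), epithelium (2 of 4) and leukocytes (1 of 3) had values as well, and none of them was called.

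The immediate early genes did not move as a block. EGR1, a zinc finger factor made within minutes of ERK activation, fell by 0.92 ± 0.13 on the log2 scale (adjusted p = 4.73e-08, 1.89-fold lower, 95% interval from -1.18 to -0.66). It lies on chr5:138465490-138469315 in GRCh38. EGR1 had 1.17 ± 0.14 in SDF1 over DMSO and -1.36 ± 0.12 in SDF1_SKHS over SDF1. EGR1 was thus lower with either product, but all 3 comparisons use the same 3 SDF1 samples and are not independent. FOS and FOSB, the partners of JUN in AP-1, had positive values of 0.49 ± 0.13 (adjusted p = 0.0518) and 0.89 ± 0.33 (adjusted p = 0.134). FOS had -0.45 in SDF1 over DMSO and FOSB had 1.43, while in SDF1_SKHS over SDF1 they had -1.71 and -1.48. Among the 31 immediate early genes measured, EGR1 was the only called member, 17 had values above 0 and 14 below, and their median was 0.01. Genes that restrain or follow ERK (the SPRY, SPRED, DUSP and ETV families) had no called member among 19. Of these 15 were below 0, and the smallest p of these was that of ETV5 (-0.27 ± 0.13, adjusted p = 0.29).

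The EGR1 promoter is shown because it carries the elements through which serum response factor acts, named CArG boxes, and EGR1 was the largest precise fall. The sequence is from RefSeq on GRCh38.p14, chr5:138465229-138465528 on the plus strand, 250 bases before to 50 after the annotated start, with the CArG boxes in capitals.
EGR1: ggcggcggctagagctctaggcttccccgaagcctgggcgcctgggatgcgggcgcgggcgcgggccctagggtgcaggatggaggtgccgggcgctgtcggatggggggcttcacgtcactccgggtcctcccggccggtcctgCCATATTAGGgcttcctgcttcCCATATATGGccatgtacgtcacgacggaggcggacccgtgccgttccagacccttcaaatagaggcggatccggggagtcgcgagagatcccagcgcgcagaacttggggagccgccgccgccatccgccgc
A CArG box was searched on both strands, and 2 were found here, starting 105 and 83 bases before the start. Such a box lay in the promoter window of 2 of 25 called lower genes with a window (8%, EGR1 and AKAP12), in 0 of 27 called higher genes and in 165 of 14047 tested genes (1.17%). These are matches of letters, and no binding was measured.

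**Figure D1:**
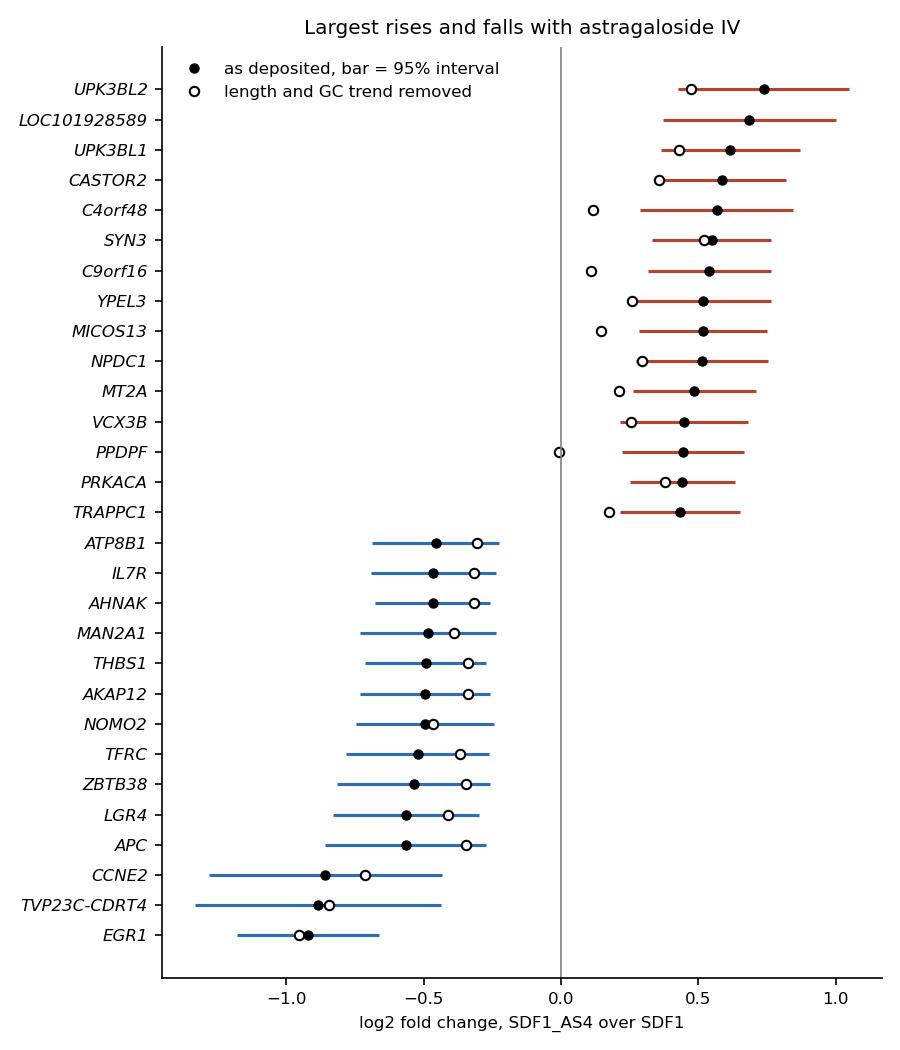
The 15 largest rises and 14 of the 15 largest falls among called, precise genes. Filled points are log2 fold changes of SDF1_AS4 over SDF1 with 95% intervals, and open points are the same values after removing the trend with transcript length and GC content. EGR1 stays at -0.95 while PPDPF moves from 0.44 to -0.01, and LOC101928589 has no open point because it had no annotated transcript.

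Among matrix genes the called falls were those of THBS1 and TNC. THBS1, which encodes the matricellular glycoprotein thrombospondin 1, fell by 0.49 ± 0.11 (adjusted p = 0.0224), and TNC, which encodes tenascin C, fell by 0.45 ± 0.11 (adjusted p = 0.0289), as the authors' deposited table gives them. In SDF1 over DMSO these genes lay on opposite sides, THBS1 at 0.43 and TNC at -0.23, and in SDF1_SKHS over SDF1 they had -0.33 and -0.65. Of 32 matricellular and elastic fibre genes measured, 2 fell and none rose, against 0.160% and 0.199% of all genes. Of the 32, 23 had values below 0, and the median was -0.18, against 0.01 over all genes. FN1, fibronectin, had -0.34 ± 0.09 (adjusted p = 0.0518), and LTBP4, a latent TGF-β binding protein, had 0.26 ± 0.10. No collagen of 21 was called. The basement membrane collagen COL4A1 came nearest at -0.41 ± 0.11 (adjusted p = 0.0518). Integrins and laminins also had no called member among 32, 21 of them below 0, with ITGA2, the α2 chain of a collagen receptor, at -0.63 ± 0.18 (adjusted p = 0.0646).

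The THBS1 promoter is shown because the gene is an often used readout of YAP and TEAD and its window holds letters bound by EGR1 and by TEAD factors in general. It lies at chr15:39580829-39581128 on the plus strand (RefSeq, GRCh38.p14), and capitals mark GCGNGGGCG, the EGR family site, and GGAATG, the TEAD site.
THBS1: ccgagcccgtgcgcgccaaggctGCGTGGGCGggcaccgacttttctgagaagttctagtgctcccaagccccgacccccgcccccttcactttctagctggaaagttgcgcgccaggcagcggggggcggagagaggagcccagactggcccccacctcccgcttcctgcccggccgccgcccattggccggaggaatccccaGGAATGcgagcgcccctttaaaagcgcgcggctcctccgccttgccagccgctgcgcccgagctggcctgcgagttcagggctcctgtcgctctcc
The EGR letters start 227 bases and the TEAD letters 46 bases before the annotated start, searched on both strands. GCGNGGGCG was in 4 of 25 called lower windows (16%), 3 of 27 called higher windows (11.1%) and 13.6% of all 14047. GGAATG was in 12%, 7.41% and 11.4% of the same sets, so the called lower genes stood near the share of all genes for both.

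Genes of very large cytoskeletal proteins had mostly negative values. AHNAK and AHNAK2, giant scaffold proteins beneath the plasma membrane, fell by 0.47 ± 0.11 (adjusted p = 0.0241) and 0.36 ± 0.09 (adjusted p = 0.0303) in the authors' deposited table. Of 25 actin linkers and giant cytoskeletal proteins these 2 were the called members, against 0.358% of all genes. Of the 25, 21 were below 0, and the median was -0.21, against 0.01 over all genes. VCL, vinculin, had -0.32 ± 0.09 and UTRN, utrophin, had -0.48 ± 0.14, neither called, while ZYX, zyxin, had 0.21 ± 0.09. CALD1, caldesmon, an actin-binding brake on myosin, fell by 0.41 ± 0.10 (adjusted p = 0.0433). It was the called member of 18 smooth muscle type contractile genes, of which 8 were above 0, with TPM2, a tropomyosin, at 0.36 ± 0.12. AKAP12, a scaffold for protein kinase A, fell by 0.49 ± 0.12. None of the 22 listed YAP and TEAD targets was called, but that list does not hold THBS1, a called fall. Of the 22, 18 were below 0, and 9 (40.9%) were lower at an unadjusted p under 0.05, against 8.53% of all genes. All 22 were precise, against 11946 of all 18133 genes, so these shares are not alike. Their median of -0.16 was -0.12 with the trend removed. MYOF, myoferlin, came nearest to the threshold (-0.36 ± 0.10, adjusted p = 0.0537). None of 14 listed genes of the pathway itself was called. Of these 5 were above 0 and 9 below, with a median of -0.05 that became -0.03 with the trend removed. Among them NF2, the upstream inhibitor merlin, had 0.43 ± 0.12 and TEAD1 had -0.46 ± 0.13, with adjusted p of 0.0546 and 0.0601. TEAD2 and TEAD4 had positive values of 0.08 and 0.12, and YAP1 had -0.37.

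Receptors and ligands made up the next group of falls. MET, the receptor for hepatocyte growth factor, fell by 0.46 ± 0.12 (adjusted p = 0.0491) and NRG1, a ligand of the EGF family, by 0.40 ± 0.10 (adjusted p = 0.045). IL7R, a chain of the interleukin-7 receptor, fell by 0.47 ± 0.12, and TFRC, the transferrin receptor for iron uptake, by 0.52 ± 0.13. In SDF1 over DMSO the authors' deposited table gives these 4 genes values between 0.11 and 0.18. In SDF1_SKHS over SDF1 it gives -0.12 for MET, -0.08 for NRG1, 0.28 for IL7R and -0.72 for TFRC. Among 30 genes of the TGF-β and BMP pathway, TGFB1, the cytokine itself, rose by 0.34 ± 0.09 (adjusted p = 0.0433). INHBA, the subunit of activin A, fell by 0.36 ± 0.10 (adjusted p = 0.0476). ID1, a BMP target, had 0.32 ± 0.10 (adjusted p = 0.0844). Among 50 Wnt genes LGR4, a receptor for R-spondins that raises Wnt signalling, fell by 0.57 ± 0.14 (adjusted p = 0.0289). APC, a scaffold of the β-catenin destruction complex, fell by 0.57 ± 0.15 (adjusted p = 0.0476), and CTNNB1, β-catenin, had -0.26 ± 0.10. LGR4 and APC act on the pathway in opposite ways, and as many members were above 0 as below, 25 each. TGFB1 had 0.18, INHBA -0.18 and APC -0.35 with the trend removed.

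Cell cycle genes with a called change were few. CCNE2, cyclin E2 of the G1 to S transition, fell by 0.86 ± 0.22 (adjusted p = 0.0433) and also had -1.84 ± 0.21 in SDF1_SKHS over SDF1 and -0.26 ± 0.17 in SDF1 over DMSO, all from the authors' deposited table. SMC1A, a cohesin subunit, fell by 0.41 ± 0.11 and ANLN, anillin of the cytokinetic ring, by 0.40 ± 0.11. SMC1A had -0.26 and ANLN -0.24 with the trend removed. E2F7 and E2F8, repressor members of the E2F family, had -0.54 ± 0.15 and -0.47 ± 0.15 without being called. Of 31 G1 genes 1 was called and 22 were below 0. Of 51 DNA replication genes none was called and 38 were below 0. Of 43 genes of mitosis and cytokinesis 1 was called, 33 were below 0 and the median of -0.14 became -0.05 with the trend removed. The same list held positive values for short transcripts such as PTTG1, securin (0.28 ± 0.10), and UBE2C, an E2 enzyme of the anaphase-promoting complex (0.20 ± 0.09). In SDF1_SKHS over SDF1 the values for PTTG1 and UBE2C were -1.04 and -1.30.

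The remaining falls were spread over other roles. ZBTB38, a zinc finger protein that binds methylated DNA, fell by 0.54 ± 0.14 and NUP205, a scaffold of the nuclear pore, by 0.35 ± 0.09. MAN2A1, a Golgi mannosidase, fell by 0.48 ± 0.13, ATP8B1, a phospholipid flippase, by 0.46 ± 0.12, and CLIC4, a chloride intracellular channel protein, by 0.43 ± 0.11. TMEM164 and ILDR2 both fell by 0.43 ± 0.11, EIF3C, a translation initiation factor subunit, by 0.34 ± 0.08, and AOX1, aldehyde oxidase, by 0.33 ± 0.09. NOMO2 fell by 0.50 ± 0.13 and TVP23C-CDRT4 by 0.88 ± 0.23. NOMO2 and EIF3C have near-identical copies in the genome and TVP23C-CDRT4 is a read-through of neighbouring genes, so how the authors' deposited table split their reads is uncertain. With the trend removed ZBTB38 had -0.34, NUP205 -0.20, CLIC4 -0.26, ILDR2 -0.22 and AOX1 -0.21.

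A duplicated pair was among the 3 largest precise rises, with LOC101928589 between them. UPK3BL2 rose by 0.74 ± 0.16 (adjusted p = 0.00966) and UPK3BL1 by 0.62 ± 0.13 (adjusted p = 0.00683), both uroplakin 3B-like genes named for their likeness to a urothelial membrane protein. These were the called members of 6 uroplakin genes, and the other 4 had implied errors above 0.5. UPK3BL2 had 0.47 and UPK3BL1 0.43 with the trend removed. In the authors' deposited table they had -1.49 and -1.004 in SDF1 over DMSO and -0.54 and -0.37 in SDF1_SKHS over SDF1. Their promoters are shown because they are nearly the same sequence, so reads of the genes may be hard to separate and the pair may not be 2 independent observations. The windows are chr7:102642742-102643041 for UPK3BL1 and chr7:102543647-102543946 for UPK3BL2, both on the minus strand (RefSeq, GRCh38.p14), printed along the gene, with the shared run of 290 of 300 bases in capitals.
UPK3BL1: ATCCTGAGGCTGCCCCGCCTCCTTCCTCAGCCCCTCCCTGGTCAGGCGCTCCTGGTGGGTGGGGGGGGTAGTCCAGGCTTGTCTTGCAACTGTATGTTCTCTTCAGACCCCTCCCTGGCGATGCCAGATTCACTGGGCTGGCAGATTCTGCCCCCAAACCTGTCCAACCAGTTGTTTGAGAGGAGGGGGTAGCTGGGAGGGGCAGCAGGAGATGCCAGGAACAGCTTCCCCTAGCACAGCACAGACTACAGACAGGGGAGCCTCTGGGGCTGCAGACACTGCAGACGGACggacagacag
UPK3BL2: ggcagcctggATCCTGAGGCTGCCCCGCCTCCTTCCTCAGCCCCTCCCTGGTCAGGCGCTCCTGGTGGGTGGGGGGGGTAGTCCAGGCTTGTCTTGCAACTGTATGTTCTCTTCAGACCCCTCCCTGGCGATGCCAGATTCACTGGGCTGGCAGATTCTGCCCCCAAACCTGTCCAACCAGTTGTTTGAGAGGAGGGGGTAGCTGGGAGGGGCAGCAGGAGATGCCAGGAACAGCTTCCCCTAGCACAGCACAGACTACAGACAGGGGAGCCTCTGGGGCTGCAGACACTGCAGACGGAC

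Kinase and growth signalling genes rose as well. PRKACA, the catalytic α subunit of protein kinase A, rose by 0.44 ± 0.10 (adjusted p = 0.0116) and had 0.17 in SDF1 over DMSO and 0.40 in SDF1_SKHS over SDF1. MAP2K2, the kinase MEK2 directly above ERK, rose by 0.34 ± 0.09 (adjusted p = 0.0454). It was the called member of 35 genes of the CXCL12 axis with its G protein and kinase arms, of which 16 were above 0 and 19 below, with a median of -0.04. In that list the deposited values of the receptors were -0.21 ± 0.30 for CXCR4 and 0.05 ± 0.11 for ACKR3, and CXCL12 was too imprecise to read (-0.48 ± 1.59). GNAI3, an inhibitory G protein subunit, had -0.22 ± 0.09. CASTOR2, an arginine sensor family member of the mTORC1 pathway, rose by 0.59 ± 0.12 (adjusted p = 0.00414), the called member of 39 genes of amino acid sensing, and it too has close copies. YPEL3, a growth-suppressing gene, rose by 0.52 ± 0.13 and SH3BGRL3, a thioredoxin-fold protein, by 0.39 ± 0.10. With the trend removed MAP2K2 had 0.10, CASTOR2 0.36, YPEL3 0.26 and SH3BGRL3 0.21, none past the threshold, while PRKACA kept 0.38 and its call.

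Metabolic and secretory genes followed. SREBF1, which encodes the lipogenic factor SREBP-1, rose by 0.40 ± 0.09 (adjusted p = 0.0256) in the authors' deposited table, against -0.45 in SDF1 over DMSO and -0.81 in SDF1_SKHS over SDF1. The sterol synthesis list had no called member of 25, and HMGCS1, an enzyme early in the route, had -0.35 ± 0.10 (adjusted p = 0.0591). TECR, the last enzyme of very long chain fatty acid elongation, rose by 0.42 ± 0.11, NNMT, nicotinamide N-methyltransferase, by 0.41 ± 0.11, and DHRS2, a short-chain dehydrogenase, by 0.38 ± 0.10. MT2A, a metal-binding metallothionein, rose by 0.49 ± 0.11 (adjusted p = 0.0286) and had -0.98 ± 0.18 in SDF1_SKHS over SDF1. Along the secretory route KDELR1, which returns proteins to the endoplasmic reticulum, rose by 0.33 ± 0.09. TRAPPC1, a subunit of a tethering complex, rose by 0.43 ± 0.11, RAB11B, a GTPase of recycling endosomes, by 0.37 ± 0.10, and VMP1, a scramblase needed for autophagy, by 0.32 ± 0.08. With the trend removed MT2A had 0.21, TECR 0.19, TRAPPC1 0.18 and RAB11B 0.16.

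Among the last rises were regulators of RNA and chromatin and several small proteins. ALKBH5, a demethylase of N6-methyladenosine in RNA, rose by 0.40 ± 0.10, SCAF1 and LENG8 by 0.38 ± 0.10 and 0.38 ± 0.09, and SAMD1, a reader of unmethylated CpG islands, by 0.43 ± 0.10. SYN3, a synapsin, rose by 0.55 ± 0.11 (adjusted p = 0.00406) and lies on chr22:32512552-33058372 with TIMP3 inside its span on the other strand, so reads may be shared. MICOS13, part of the complex that forms cristae junctions, rose by 0.52 ± 0.12, CSTB, cystatin B, by 0.38 ± 0.10 and NPDC1 by 0.51 ± 0.12. IFITM3, an interferon-induced block to virus entry, rose by 0.39 ± 0.10 (adjusted p = 0.047). C4orf48, C9orf16, PPDPF, VCX3B and LOC101928589 rose by 0.57, 0.54, 0.44, 0.45 and 0.68. With the trend removed MICOS13 had 0.15, IFITM3 0.15, NPDC1 0.30, SAMD1 0.23 and SCAF1 0.21. C4orf48 had 0.11, C9orf16 0.11, PPDPF -0.01 and VCX3B 0.25. A last 4 called genes in the authors' deposited table were too imprecise for their size to be read: ZASP (9.33 ± 1.49), LDLRAD2 (3.26 ± 0.76), VIL1 (2.83 ± 0.68) and MEF2B (1.33 ± 0.35). All 4 had negative values in SDF1 over DMSO, -8.76 for ZASP, -4.17 for LDLRAD2, -1.80 for VIL1 and -1.48 for MEF2B.

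**Figure D2:**
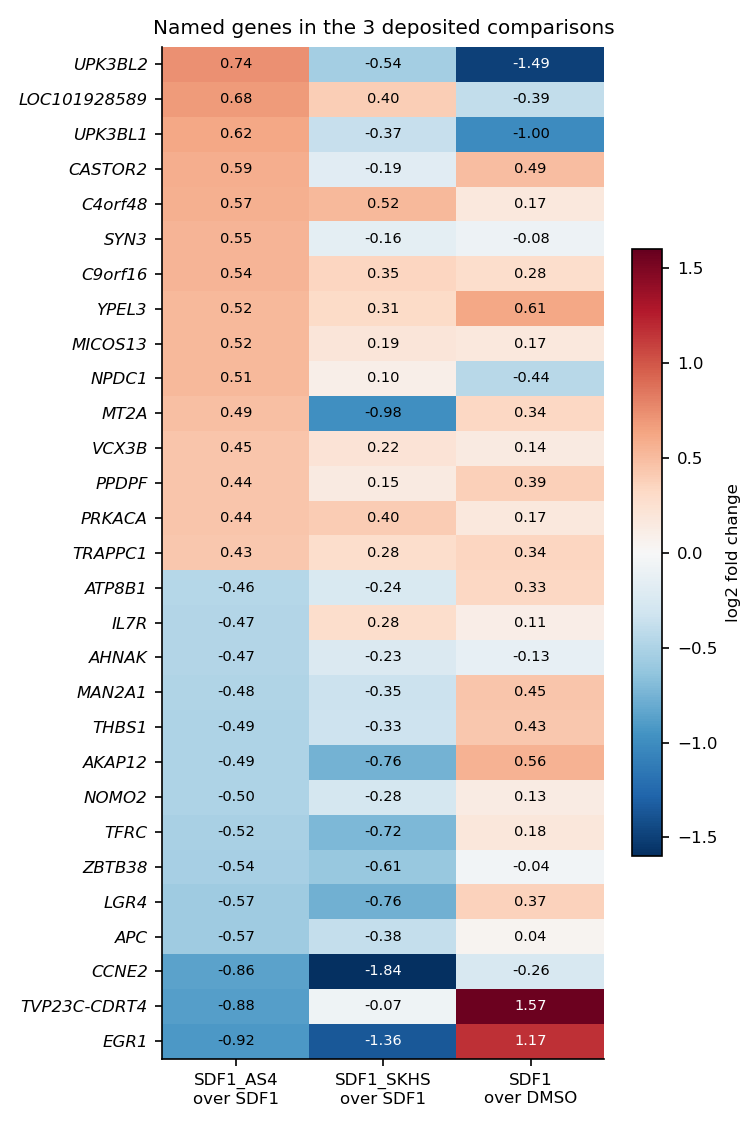
Log2 fold changes of the 15 largest rises and 14 of the 15 largest falls of SDF1_AS4 over SDF1 (left column), beside SDF1_SKHS over SDF1 and SDF1 over DMSO. All 3 columns use the same 3 SDF1 samples, so opposite signs between the left and right columns, as for EGR1 (-0.92 and 1.17), are not independent. The right-hand value of TVP23C-CDRT4 (1.57) has an implied error of 0.67.

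A slope with transcript length and GC content ran across all genes. Genes with short, GC-rich transcripts had positive values and genes with long, GC-poor transcripts negative ones. The 11889 precise genes with a GENCODE 29 transcript were split into 4 bins by GC content and 4 by length. The median log2 fold change was 0.24 where GC content was highest and transcripts shortest. It was -0.21 at the opposite corner, the lowest GC content and longest transcripts. Across these genes Spearman's rho was -0.52 with length and 0.59 with GC content, given as a description because genes are not replicates. The called genes followed it. The 34 called higher genes with a transcript had a median length of 1670 nt, GC content of 60.8% and 5 exons. The 29 called lower genes had 5206 nt, 44.5% and 16 exons, and all tested genes 2847 nt, 50.0% and 8 exons. The whole gene spanned a median of 10.97 kb for the called higher genes, 98.97 kb for the called lower genes and 29.7 kb for all. The part of length and GC content in the calls of the authors' deposited table was not tested.

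**Figure D3:**
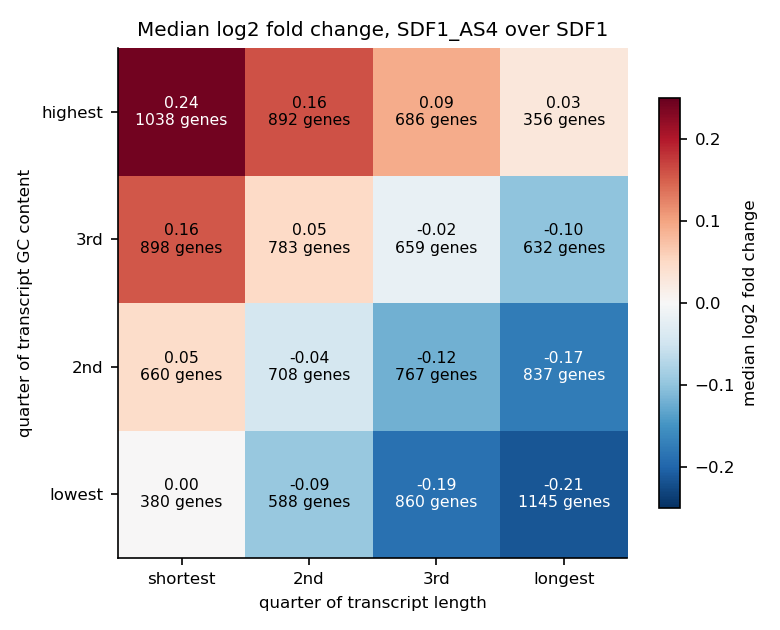
Median log2 fold change of SDF1_AS4 over SDF1 in 4 bins of transcript length (horizontal) and 4 of GC content (vertical), with the number of precise genes in each cell. Values run from 0.24 at the short, GC-rich corner to -0.21 at the long, GC-poor corner.

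The slope also appeared along chromosomes, whose genes differ in GC content. The median log2 fold change was highest on chromosome 19 (0.16) and lowest on chromosome 13 (-0.12). Over 23 chromosomes it went with median GC content at a Spearman's rho of 0.96, a description only. Of the 34 called higher genes with a transcript, 11 (32.4%) lay on chromosome 19 (KDELR1, TGFB1, MAP2K2, RAB11B, LENG8, SCAF1, TECR, SAMD1, PRKACA, MEF2B and MICOS13). Chromosome 19 held 0 of the 29 called lower genes and 7.36% of all tested genes with a transcript. After the trend with length and GC content was removed, chromosome medians lay between -0.06 and 0.03.

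**Figure D4:**
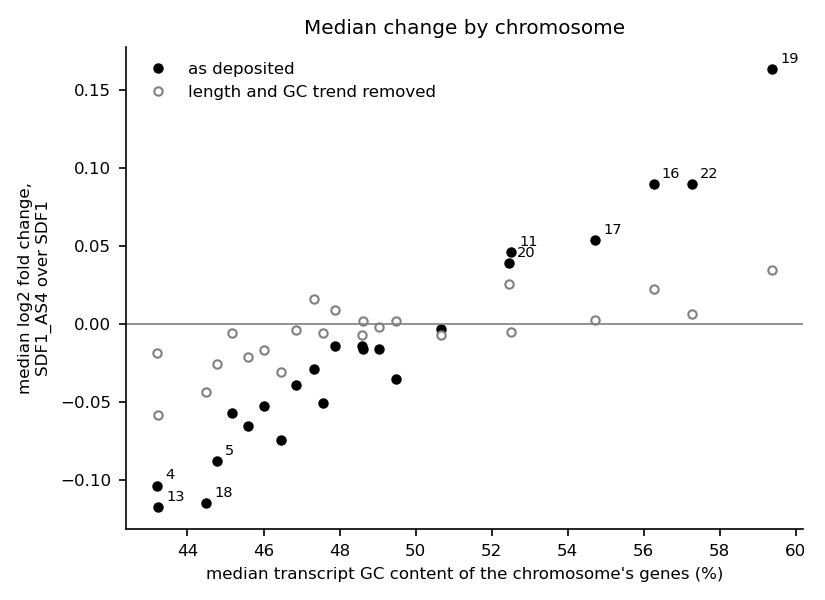
Median log2 fold change of SDF1_AS4 over SDF1 for each of 23 chromosomes against the median GC content of its genes. Filled points are the deposited values, from -0.12 (chromosome 13) to 0.16 (chromosome 19), and open points, from -0.06 to 0.03, are after removing the trend with length and GC content.

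With the trend removed, which took out 46.7% of the variance of the precise genes, 39 of 17713 genes were past the same threshold (0.220%), 21 higher and 18 lower. Of the 65 called genes 8 were among them: EGR1 (-0.95), NRG1 (-0.44), EIF3C (-0.36), PRKACA (0.38), VMP1 (0.40), SYN3 (0.52), VIL1 (2.98) and LDLRAD2 (3.16). The other 31 had no call in the authors' deposited table, and the ones named next were chosen after their values were seen. TF, the iron carrier transferrin, had 0.65 (0.44 as deposited, adjusted p = 0.0618) and CST3, cystatin C, had 0.46 (0.38, adjusted p = 0.0546). VEGFA, an angiogenic growth factor, had -0.46 (-0.21 as deposited) and HMGA2, an architectural chromatin protein, -0.46 (-0.34). IGFBP3, an insulin-like growth factor binding protein, had -0.41 (-0.11) and PODXL, podocalyxin, -0.50 (-0.36). The deposited adjusted p of these 4 were 0.275, 0.0532, 0.595 and 0.0753. Trend-removed values rest on the transcript used, which had 20602 nt for TF, 3286 for CST3, 1286 for VEGFA and 1050 for IGFBP3. Whether those are the transcripts expressed here was not checked. THBS1, TNC and AHNAK kept negative values of -0.34, -0.38 and -0.32 and were no longer past the threshold.

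The lists of ribosomal, respiratory and proteasome genes, with median transcripts of 909 to 1579 nt, had positive medians. Of 86 cytosolic ribosomal protein genes 84 were above 0, but only RPS26 was called (0.32 ± 0.08, adjusted p = 0.0454). An unadjusted p under 0.05 was found for 55, all higher, against 7.85% of all genes. These shares are not alike, since 83 of the ribosomal protein genes were precise, against 11946 of all 18133 genes. Their median was 0.21 and became 0.06 with the trend removed. RPS26 has many processed copies in the genome, so its reads may be shared. Of 38 subunits of respiratory complex I none was called and 36 were above 0, with a median of 0.25 that became 0.08. Complexes II to V had 40 of 43 above 0 and medians of 0.26 for all and 0.25 for precise members, which became 0.11. Mitochondrial ribosomal proteins had 67 of 79 above 0 (median 0.15, then 0.04) and proteasome subunits 32 of 39 (median 0.11, then 0.07), with no member called in the authors' deposited table. NDUFS1, the largest complex I subunit, had -0.15 ± 0.10.

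Other lists had negative medians. Of 34 large chromatin regulators 30 were below 0 and ZBTB38 was called, and the median of -0.20 became -0.04 with the trend removed. The actin linkers kept -0.11 of their -0.21, the YAP and TEAD targets -0.12 of -0.16, and the matricellular genes -0.14 of a precise median of -0.15. Lists could also split within. Of 40 interferon-stimulated genes IFITM3 rose and none fell. At an unadjusted p under 0.05, 6 were higher (15%) and 10 lower (25%), against 7.85% and 8.53% of all genes. Of the 40, 33 were precise, against 11946 of all 18133 genes, so these shares are not alike. The short IFITM1, IFITM2 and IFI6 had 0.35, 0.37 and 0.35, and the longer SAMD9L, OAS2 and OAS3 had -0.40, -0.33 and -0.32, none of these called. NRF2 targets had no called member of 31, with FTH1, a ferritin chain, at 0.30 ± 0.09 and SLC7A11, the cystine transporter, at -0.38 ± 0.12. In 28 lists with at least 3 precise members on each side of 0, the members below 0 had the longer median transcript in 27 and the lower median GC content in 28. Of the 34 lists, 20 had no called member in the authors' deposited table.

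**Figure D5:**
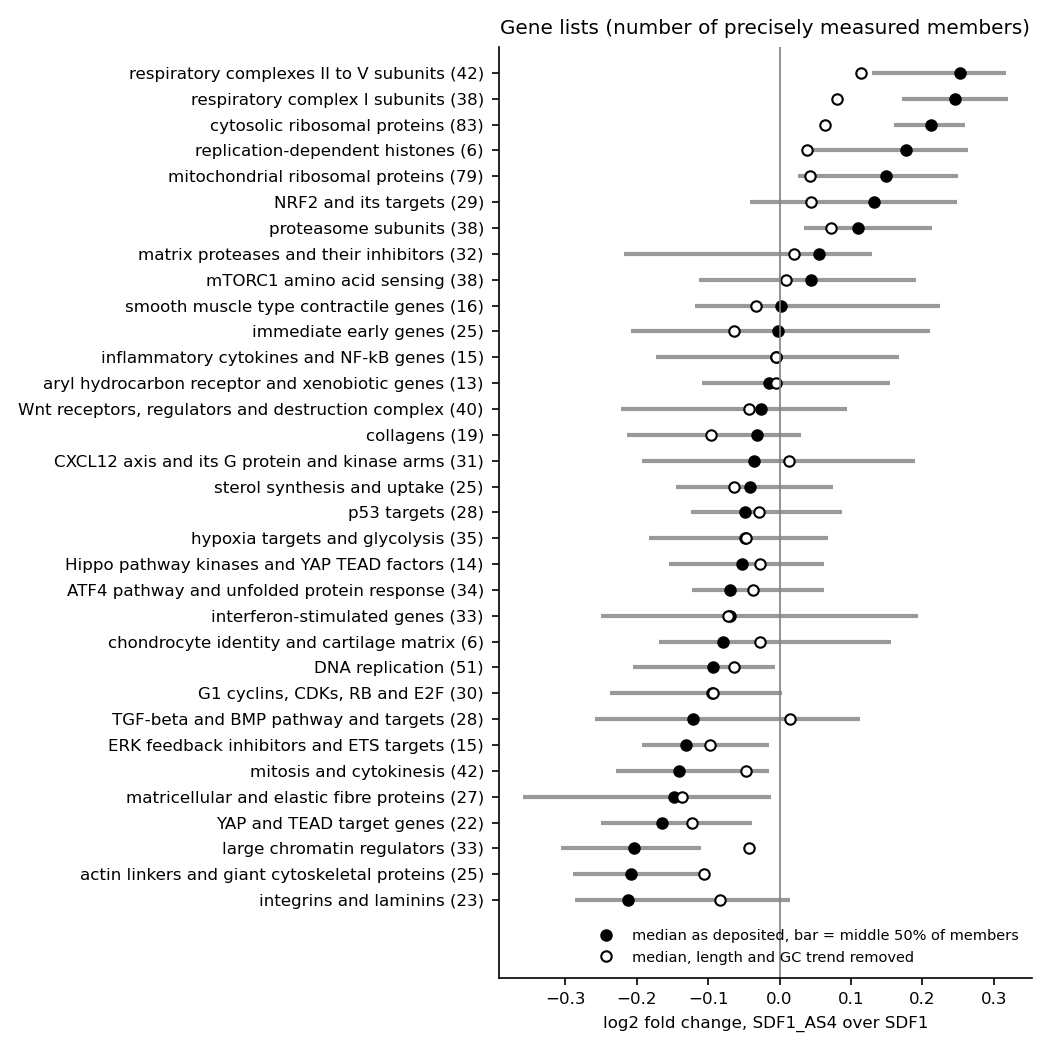
Median log2 fold change of SDF1_AS4 over SDF1 for gene lists with at least 5 precise members, with the number of those members in brackets. Filled points and bars are the median and middle 50% of deposited values, and open points are medians after removing the trend with length and GC content. The medians of complex I, the cytosolic ribosome and the chromatin regulators, at 0.25, 0.21 and -0.20, lie at 0.08, 0.06 and -0.04 with the trend removed.

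Cartilage readouts gave no call. SOX9 had 0.00 ± 0.10, with a 95% interval from -0.21 to 0.20, and ACAN had -0.30 ± 0.15 (adjusted p = 0.297) in the authors' deposited table. The collagenase genes MMP1 and MMP13 had 0.06 ± 0.13 and 0.12 ± 0.17, and the stromelysin MMP3 had 0.14 ± 0.08, with 95% intervals up to 0.31, 0.45 and 0.29. The same 3 genes had -1.20, -0.56 and -0.59 in SDF1 over DMSO. TIMP1, an inhibitor of these proteases, had 0.38 ± 0.11 (adjusted p = 0.0546). CXCL8, the chemokine interleukin-8, had -0.14 ± 0.13, and IL6 and ADAMTS5 were measured with errors of 0.65 and 3.18, so only a large change could have been called. Of 33 inflammatory and NF-κB genes none was called. Their median was -0.004, with 16 above 0 and 17 below. TNFAIP3, a brake on NF-κB, had -0.45 ± 0.12 and NFKBIZ, an atypical inhibitor protein, had -0.57 ± 0.17, with adjusted p of 0.0537 and 0.0648. The inhibitor genes NFKBIE and NFKBIA had positive values of 0.28 and 0.15, with adjusted p of 0.275 and 0.402, so these inhibitors did not move together.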

How the data were processed

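RNA of 12 samples was sequenced. Per the submitters' processing notes, Bowtie2 2.2.5, RSEM 1.2.12 and DESeq2 1.4.5 were used with genome build GRCh38.p13, and the order of steps is not given in the sources used here. The authors' deposited table holds, per the file headers, a log2 fold change, a DESeq2 p-value and a q-value for each of 3 comparisons. The deposited q-value equals a Benjamini-Hochberg adjustment of the deposited p-value over genes with a value (largest difference 1.29e-14) and is called adjusted p. Depth is unknown and no value per sample was used, so no interval from counts was computed.

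In each header the group named last was read as the numerator. Of genes with no value here, all 267 with a value in SDF1 over DMSO were below 0 there and all 324 in SDF1_SKHS over SDF1 were above 0. Of genes with no value in SDF1 over DMSO, all 238 with a value here were above 0. The implied standard error was taken from the log2 fold change and the normal deviate of its p-value, on the assumption of a Wald test. Length, GC content, exons and coordinates came from GENCODE 29, from the transcript with the longest coding sequence, for 17713 genes (97.7%). Ties went to a transcript annotated as principal and then to the longest one, which need not be the one expressed. A smooth trend of the log2 fold change with length and GC content over precise genes was subtracted as an alternative. The calling and trend steps were run on simulated data with normal errors and a trend of a form that the fit contains. The planted changes were larger than any precise called change here. That run checks the code and does not bear on the calls or on the assumption of normal errors. Python 3.11.15 was used with numpy 2.4.6, pandas 2.3.3, scipy 1.17.1 and matplotlib 3.10.9.

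Genes named were every called gene, in full the 15 largest rises and falls with an error of at most 0.3, the called members and the 4 members of smallest p in each direction of 34 lists, and 12 fixed genes. Some genes that this rule names are not reported here. The members and lists were chosen with earlier results of these data known. Lists are described by counts and medians, without a test.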

Additional observations from a re-analysis of the deposited data

How the results depend on the processing

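The count of 65 called genes (36 higher, 29 lower) depended on the threshold. At an adjusted p under 0.01 it was 7 (6 higher, 1 lower), and at 0.10 it was 638 (326 higher, 312 lower). Keeping genes with an implied error of at most 0.5 and adjusting anew gave 190 (98 higher, 92 lower), 62 of them among the 65. Centring on the median of precise genes, a shift of 0.01 on the log2 scale, gave 78 (52 higher, 26 lower), so the higher share went to 66.7%, against 55.4% as deposited and 53.8% with the trend removed. Removing the trend with length and GC content gave 39 (21 higher, 18 lower), 8 of them among the 65, and turned PPDPF to -0.00812. Reading the statistics against a t distribution with 4 degrees of freedom gave 0 calls, 0 higher and 0 lower, beside 2970 genes at an unadjusted p under 0.05 as deposited (16.4%), since heavier tails raise every p. Among named genes with a value at each setting, 74 kept direction and side of the threshold when centred and 3 no longer passed, and with the trend removed 20 kept both and 54 no longer passed. Of 34 list medians, 5 changed sign with the trend removed, 2 when centred and 3 over precise members.

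No paired analysis was possible because values per sample were not used here. Leaving out a sample, another normalisation, a filter on counts, edgeR and a new DESeq2 fit were not run for the same reason. Depth is unknown, labels were not checked against levels, and the 95% interval lay within a 2-fold change for 68.9% of genes only.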
